A study of Mus musculus with 12 samples.

Results

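The late phase of a transplanted leukemia was read in bone marrow monocytes and macrophages, as the difference between 3 mice that had carried the leukemia for 31 days and 3 mice of the same age that carried none. All 6 animals were Rag2-/-gamma c-/- mice on a BALB/c background, 13 weeks old. Such mice make no T, B or natural killer cells of their own and accept human cells. The leukemia was MEC1, an established human B cell line first grown from a patient with chronic lymphocytic leukemia and given intravenously. It is a single line, and the control mice received no MEC1 cells. Monocytes and macrophages were taken from marrow by magnetic separation, and the RNA of each mouse was read on 1 mouse whole-transcriptome array. The 6 arrays are those of the groups With MEC1 31d and No MEC1 31d, replicates 1 to 3, out of 12 in the series. The other 6 hold the same comparison at 21 days, in mice aged 11 weeks. Every replicate was a different mouse.

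A transcript cluster, the array's unit for a gene, entered the test if it lay above its array's own median in at least 3 of the 6 arrays, and a gene with several such clusters was taken at the one with the highest mean. This left 11869 of 19232 coding genes. Of these, 10341 lay above the median in all 6 arrays, 141 in no control array and 229 in no MEC1 array, so that the last 2 sets passed only through the group where they are high. All values below are log2 intensities as deposited, where a step of 1 is a factor of 2, and all changes are MEC1 minus control.

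Marrow monocytes arise from granulocyte and monocyte progenitors under transcription factors such as PU.1, IRF8, C/EBP alpha and KLF4, and leave the marrow through the chemokine receptor CCR2. Marrow macrophages also sit at the centre of erythroblast islands, take up the nuclei that red cell precursors shed, and recycle iron. In chronic lymphocytic leukemia, cells of this lineage supply leukemic B cells with chemokines such as CXCL13 and with survival signals. Inflammatory activation of myeloid cells is known for the interleukin 1 system, serum amyloid, S100 alarmins and the stefins, small inhibitors of cysteine proteases.

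Promoter letters are shown for genes of 3 groups described below. Red cell genes and genes of replication and mitosis are each known for DNA motifs, while Saa3 and Cxcl13 were picked from the largest rises of these data. The letters come from RefSeq on the build GRCm38.p6, as the 250 bases before the first listed start, and 9743 of the tested coding genes had an entry. Both strands were searched, and the motifs in capitals do not overlap. Kel and Rhd, red cell surface genes among the largest falls, carry the GATA motif AGATAA, Kel at chr6:41704326-41704575 on the minus strand and Rhd at chr4:134864286-134864535 on the plus strand.
Kel: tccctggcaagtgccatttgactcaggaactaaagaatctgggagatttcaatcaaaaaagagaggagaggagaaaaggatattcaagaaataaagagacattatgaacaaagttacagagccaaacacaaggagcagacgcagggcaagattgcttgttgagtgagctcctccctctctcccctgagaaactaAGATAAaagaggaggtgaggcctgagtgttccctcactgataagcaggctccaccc
Rhd: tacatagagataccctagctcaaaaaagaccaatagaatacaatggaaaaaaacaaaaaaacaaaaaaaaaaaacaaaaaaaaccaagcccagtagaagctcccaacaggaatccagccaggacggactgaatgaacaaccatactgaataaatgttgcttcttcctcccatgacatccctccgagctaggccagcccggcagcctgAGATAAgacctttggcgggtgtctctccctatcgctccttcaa
AGATAA stood in 8 of 34 promoters of the red cell, heme and erythroid regulator genes (23.5%) and in 6.93% of all 9743. It also stood in 4 of 9 promoters of stefins and cystatins (44.4%), a list that mostly rose. CCACACCC, the motif of the erythroid factor KLF1, stood in 0 of the 34 and in 3.6% of all. Cdk1, the kinase that starts mitosis, and Mki67, a coat protein of mitotic chromosomes, carry CCAAT and TTTGAA, the latter known as the cell cycle homology region. Cdk1 lies at chr10:69352913-69353162 on the minus strand and Mki67 at chr7:135716380-135716629 on the minus strand.
Cdk1: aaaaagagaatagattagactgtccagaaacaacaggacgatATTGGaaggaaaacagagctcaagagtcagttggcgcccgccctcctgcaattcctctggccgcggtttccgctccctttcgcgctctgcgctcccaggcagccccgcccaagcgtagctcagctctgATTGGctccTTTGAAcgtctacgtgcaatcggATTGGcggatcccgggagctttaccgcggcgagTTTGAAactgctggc
Mki67: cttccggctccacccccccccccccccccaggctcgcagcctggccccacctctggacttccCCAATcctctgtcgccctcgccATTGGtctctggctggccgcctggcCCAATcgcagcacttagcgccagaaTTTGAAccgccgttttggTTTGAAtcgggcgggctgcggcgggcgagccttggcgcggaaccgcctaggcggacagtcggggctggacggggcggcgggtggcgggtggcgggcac
CCAAT stood in 69.4% and TTTGAA in 22.4% of 49 promoters of replication and mitosis genes, and in 37.2% and 11.3% of all. The E2F motif TTTGGCGC stood in 6.12% of the 49 and in 0.79% of all. Saa3 and Cxcl13, among the 3 largest rises, carry the C/EBP motif TTGCNNAAT, on the reverse strand, Saa3 at chr7:46715677-46715926 on the minus strand and Cxcl13 at chr5:95956689-95956938 on the plus strand.
Saa3: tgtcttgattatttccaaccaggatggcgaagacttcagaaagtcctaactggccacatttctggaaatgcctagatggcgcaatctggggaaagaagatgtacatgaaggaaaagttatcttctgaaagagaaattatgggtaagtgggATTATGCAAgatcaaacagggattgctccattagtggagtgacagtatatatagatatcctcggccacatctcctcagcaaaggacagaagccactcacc
Cxcl13: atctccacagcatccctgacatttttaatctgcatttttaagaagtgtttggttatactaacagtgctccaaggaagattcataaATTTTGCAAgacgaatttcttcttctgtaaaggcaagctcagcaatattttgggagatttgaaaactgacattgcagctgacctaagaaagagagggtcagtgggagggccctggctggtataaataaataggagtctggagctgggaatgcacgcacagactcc
TTGCNNAAT stood in 5.14% of 253 promoters of genes that rose by both measures described below and in 1.69% of all, but in 0 of the 9 promoters of stefins and cystatins. In the same 253 promoters AGATAA stood in 9.49% and TTTGAA in 15.0%. In 837 promoters of genes that fell by both measures these shares were 7.53% and 12.1%. Lower-case letters also hold searched motifs, namely TTATCT, the reversed GATA motif, in Saa3, TTTGAA in Cxcl13 and CCAAT in Rhd. A match describes letters only, and binding was not measured.

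The MEC1 arrays differed as a whole from the control arrays. The hybridisation controls, bacterial RNAs added in fixed amounts, lay between 10.47 and 10.70 in control mice and between 12.15 and 13.18 in MEC1 mice. The positive-control features went the other way, from 10.19 on average in controls to 8.58 under MEC1, and so did the median of the mitochondrial clusters, 8.93 against 7.13. Neither group's values overlapped in these measures, and each difference had the smallest p that 3 against 3 arrays allow (exact permutation test, two-sided, p = 0.1). The median over the whole array was 3.81 ± 0.00577 in control mice and 4.24 ± 0.144 in MEC1 mice (SD, n = 3), while the 95th percentile was lower in MEC1 mice, 9.74 against 10.37. MEC1 replicate 3 stood farthest out in each of these measures. Pearson's r over all tested clusters was 0.984 to 0.990 among control arrays, 0.963 to 0.986 among MEC1 arrays and 0.879 to 0.948 between the groups. Leukemia and array state cannot be told apart by a fit on the hybridisation controls, since 92.2% of the variance of their level lay between the 4 groups of the series.

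**Figure D1:**
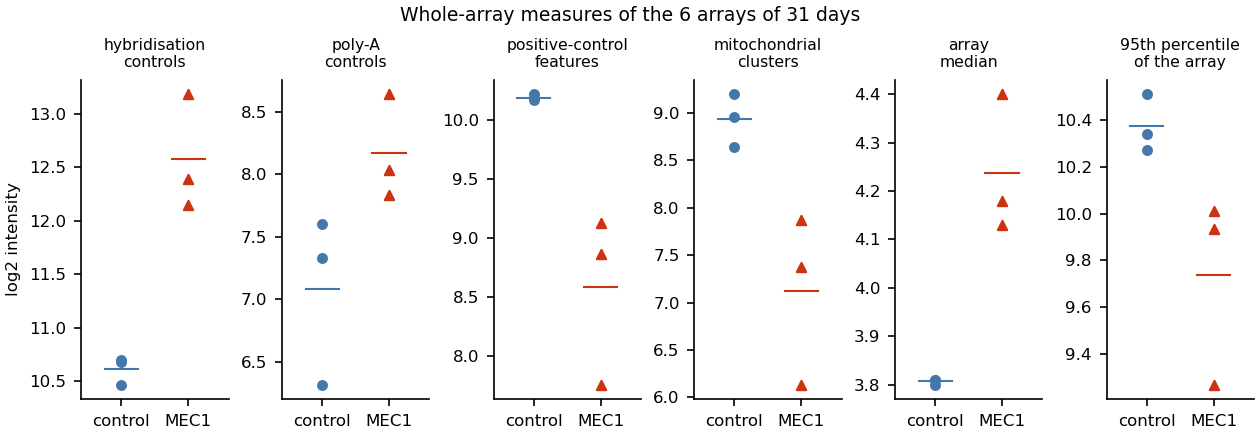
Whole-array measures of the 6 arrays of 31 days, in log2 intensity on separate vertical axes that do not start at 0, with 1 point per mouse (circles for control, triangles for MEC1) and a bar at each group mean. Hybridisation controls are higher in all 3 MEC1 mice (12.15 to 13.18 against 10.47 to 10.70), and positive-control features and mitochondrial clusters are lower.

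Late leukemia came with changes in many coding genes, mostly downward. In limma's test with Benjamini-Hochberg adjustment over all 33778 tested clusters, 5749 coding genes changed at an adjusted p under 0.05 (48.4%), of which 1012 rose (8.53%) and 4737 fell (39.9%). The 141 genes that passed only through MEC1 mice had to lie higher there to pass and were all among the rises, and 21 of the 229 that passed only through control mice were among the falls. Of the 11499 genes that passed through both groups 871 rose (7.57%) and 4716 fell (41%). At least 2-fold, 210 rose (1.77%) and 2933 fell (24.7%). The groups did not overlap in 8549 genes (72%), with MEC1 mice higher in 2044 (17.2%) and lower in 6505 (54.8%). Over all clusters, coding or not, 13496 changed (40%), 6172 upward (18.3%) and 7324 downward (21.7%). The split between directions moved with scaling: rises were 17.6% of the called coding genes as deposited and 2.73% with each array centred on its median, which gave 210 rises and 7473 falls. Counts also moved with single mice. There were 455 rises without control replicate 1, 327 without control replicate 2 or 3 and 613 without MEC1 replicate 2, and 2777 and 2927 falls without control replicates 2 and 3. In a fit of 12 arrays with the hybridisation-control level as covariate, limma called 1 rise, Saa3, and 0 falls, with 654 rises and 340 falls at an unadjusted p under 0.05.

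The size of the change followed how bright a gene was in control mice. Genes at a control level of 4 or below had a median change of 0.53, and those from 6 to 8 one of -0.66. From 10 to 12 the median was -1.26 and from 12 to 14 it was -1.40, before it returned to -0.86 in the 53 genes above 16. Dim genes thus tended to be higher and bright genes lower in MEC1 mice, around a median of -0.46 over all coding genes. With quantile normalization that median was -0.22, and with arrays centred on their median it was -0.89. It depended on the filter as well, turning to 0.13 over all 19232 coding genes with no filter on dim clusters and reaching -0.74 with a filter at the 70th percentile.

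Each gene was therefore also set against genes of its own brightness. From every array the running median deviation of the coding genes nearest in control level was subtracted, and the same limma fit was run. This takes the typical gene of each level as unchanged, and its result is called here the level-relative change. By it 2301 coding genes changed (19.4%), 1235 upward (10.4%) and 1066 downward (8.98%). Quantile normalization gave 1242 and 1184. Without control replicates 1, 2 and 3 in turn there were 526, 456 and 365 rises and 632, 500 and 413 falls, and without MEC1 replicate 2 there were 673 and 591. Both measures called 1341 genes the same way (11.3%). Of the 4737 falls, 1029 were also called downward against genes of like level, which is 21.7% of those falls, 96.5% of the level-relative falls and 8.67% of all tested coding genes. A further 3698 were not called and 10 were called upward. Of the 1012 rises, 312 were also called upward, which is 30.8% of those rises, 25.3% of the level-relative rises and 2.63% of all tested coding genes, and 700 were not called. Another 913 genes were called upward only against genes of like level. The counts of gene lists given below stand beside these shares of all tested coding genes, 8.53% that rose and 39.9% that fell as measured, and 10.4% and 8.98% level-relative.

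**Figure D2:**
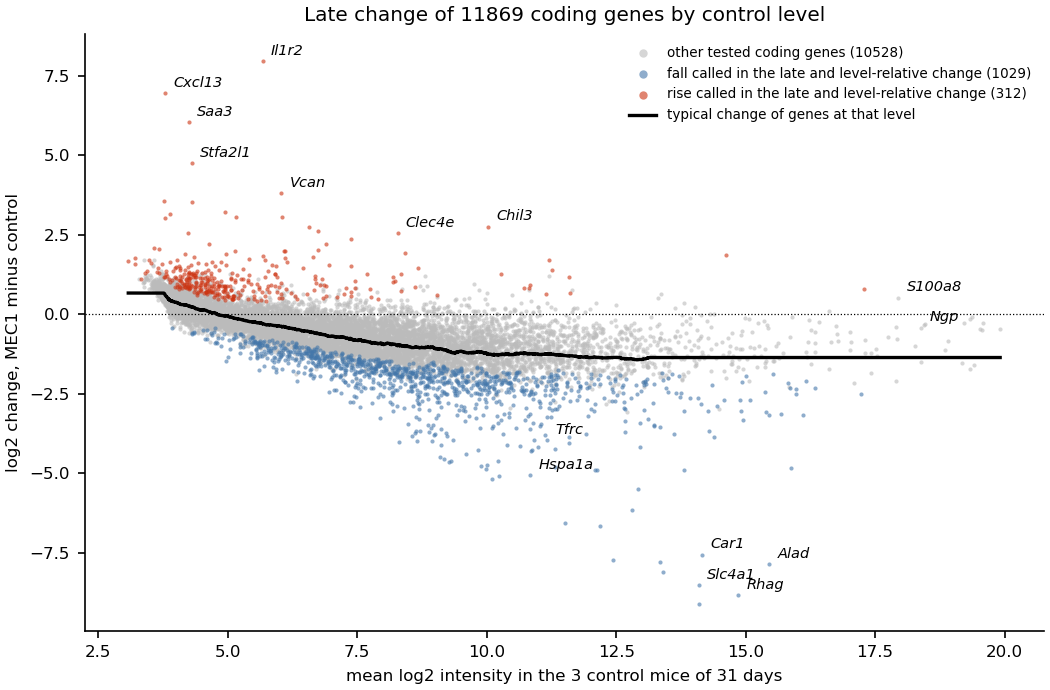
Late change (log2, MEC1 minus control) of 11869 coding genes against their mean log2 intensity in the 3 control mice of 31 days, with the typical change at each level as a black line. Most genes follow the line from above 0 among dim genes to about -1.40 among bright ones, and the 312 coloured rises and 1029 coloured falls were called by both measures.

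The largest rise was that of Il1r2, the decoy receptor that binds interleukin 1 without signalling. It read 4.93, 6.06 and 6.03 in control mice and 12.57, 14.57 and 13.80 in MEC1 mice. The groups lay far apart, and the change was 7.97 (SE 0.552, adjusted p = 0.000817, limma), or 8.27 against genes of like level. Cxcl13, the chemokine that draws B cells through CXCR5, read 3.79, 3.93 and 3.65 in control mice, near the array median, and 12.43, 10.43 and 9.37 in MEC1 mice. It rose by 6.95 (SE 0.712, adjusted p = 0.00222), with MEC1 replicate 1 well above the other two. Saa3, the serum amyloid that macrophages make, read 4.27, 4.29 and 4.18 against 10.89, 11.01 and 8.97 and rose by 6.04 (SE 0.530, adjusted p = 0.00143).

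Vcan, the large matrix proteoglycan that inflammatory monocytes secrete, rose from 6.31, 5.66 and 6.12 to 10.22, 9.90 and 9.42. Its change was 3.82 (SE 0.268, adjusted p = 0.000844), with MEC1 mice close to each other. Cfb, factor B of the alternative complement pathway, rose by 3.08 (adjusted p = 0.0107), from 5.19, 5.15 and 5.16 to 9.55, 8.23 and 6.95, so that the MEC1 mice spread widely around a tight control group. Ccr7, the receptor that guides dendritic cells to lymph nodes, rose by 3.08 (adjusted p = 0.00407), from 6.30, 5.94 and 5.88 to 8.22, 9.20 and 9.93. Chil3, the chitinase-like protein Ym1, was already bright and rose further, from 9.86, 9.86 and 10.35 to 12.91, 13.37 and 12.07. Its change was 2.76 (adjusted p = 0.00330) where genes of its level typically changed by -1.25, which gave a level-relative rise of 4.01 (adjusted p = 0.000851). Clec4e, the lectin Mincle that senses mycobacterial cord factor and dying cells, read 8.09, 8.65 and 8.09 against 10.72, 11.24 and 10.52. It rose by 2.55 (adjusted p = 0.00207) as measured and by 3.54 level-relative.

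**Figure D3:**
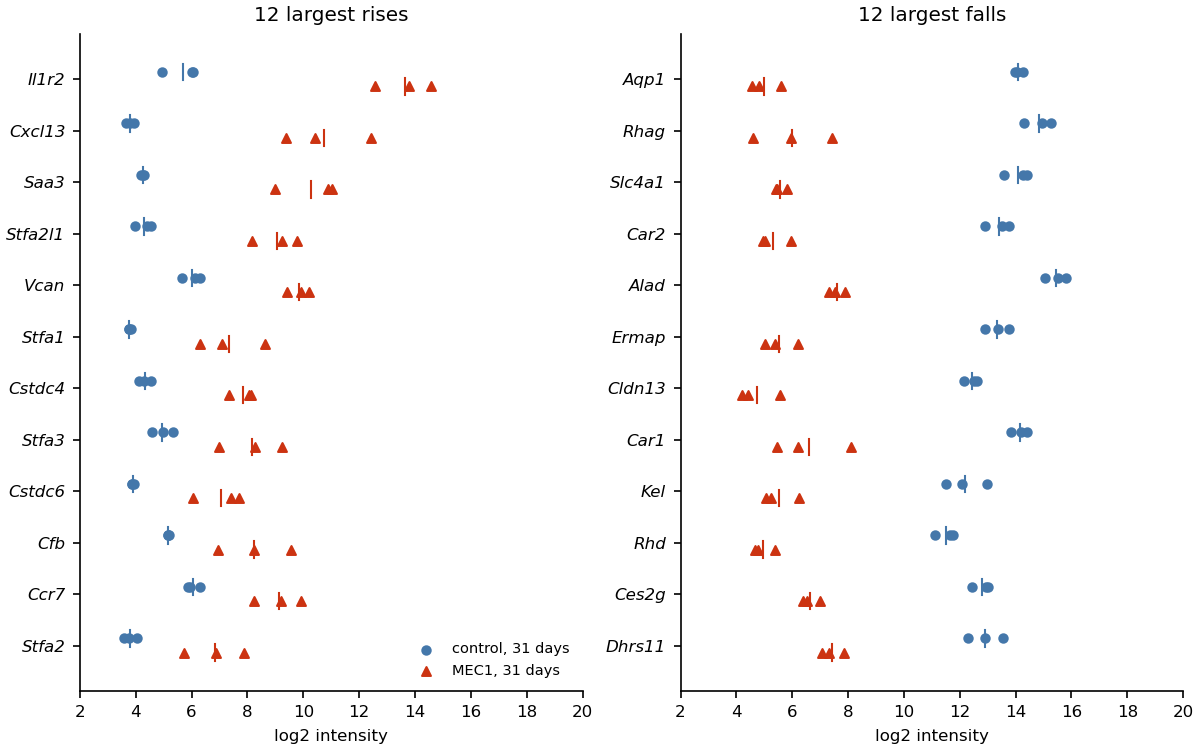
Log2 intensity of the 12 largest rises and 12 largest falls among coding genes at 31 days, with 1 point per mouse (circles for control, triangles for MEC1) and a bar at each group mean. Only called genes whose groups do not overlap were eligible, and Il1r2 goes from a mean of 5.67 to 13.65 and Aqp1 from 14.09 to 4.99.

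Of the 12 largest rises, 6 were stefins or stefin-like cystatins, genes that lie on mouse chromosome 16. Stfa2l1 read 4.39, 3.97 and 4.54 in control mice and 9.79, 9.25 and 8.16 in MEC1 mice (change 4.77, adjusted p = 0.00142). Stfa1, Cstdc4, Stfa3, Cstdc6 and Stfa2 rose by 3.57, 3.52, 3.21, 3.15 and 3.04. In all 6 each MEC1 mouse lay above each control mouse, as the choice of the largest rises required. MEC1 replicate 3 was the lowest of the MEC1 mice. Of 11 tested stefins and cystatins 8 rose and 1 fell, Cst3, the secreted cystatin C. The median change was 3.04, against -0.46 over all coding genes, and the number of rises was 8 or 9 in each fit that left out 1 mouse. Level-relative 9 rose. These came to 6, 5 and 5 without control replicates 1, 2 and 3, and to 8, 7 and 9 without MEC1 replicates 1, 2 and 3. Of the 8 rises, Csta3 and Cstdc5 passed the filter only through MEC1 mice. Near-identical copies can share probes, so that the members may not be independent readings.

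The interleukin 1 family held further rises. Of 16 tested members 5 rose and 1 fell as measured, and 6 rose level-relative, with a level-relative median of 0.80. Il1b itself, the main secreted cytokine, read 6.33, 6.74 and 7.13 in control mice and 8.90, 8.83 and 8.57 in MEC1 mice, a rise of 2.03 (SE 0.234, adjusted p = 0.00273). Il1f9, interleukin 36 gamma, read 7.60, 6.53 and 8.02 against 9.62, 10.81 and 8.87. It rose by 2.38 (adjusted p = 0.0202), a call lost without control replicate 2 (adjusted p = 0.0615). The family's 5 rises came to 2 without control replicate 2 and to 3 without control replicate 1 or 3 or MEC1 replicate 2.

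Acute-phase proteins and alarmins gave 6 rises and 2 falls in 15 tested genes, and 10 level-relative rises with a median of 1.42. One of the rises, Cp, passed the filter only through MEC1 mice. The rises were 3 without any single control mouse or MEC1 replicate 2 and 11 without MEC1 replicate 3, and the level-relative rises 6 without control replicate 3. S100a8, a subunit of the calcium-binding alarmin calprotectin, read 18.15, 17.86 and 17.82 in control mice and 19.31, 19.26 and 16.84 in MEC1 mice. The groups overlapped through MEC1 replicate 3, and the change of 0.53 was not called (adjusted p = 0.528), while the level-relative rise of 1.89 was (adjusted p = 0.00949). That rise rests on the fixed value of the bright end, and the 53 genes above 16 had a median change of -0.86. Without MEC1 replicate 3 the change was 1.34 and called (adjusted p = 0.00456), as it was with array weights, at 1.23 (adjusted p = 0.0176). Without MEC1 replicate 1 it was 0.11. These values lie near the highest of the table, 19.93.

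Neutrophil granule genes, markers of another myeloid cell, were also bright, with a mean over 21 genes of 12.61 to 13.03 in control mice and 10.41 to 12.56 in MEC1 mice. The median change was -1.02, against -0.46 over all coding genes. MEC1 mice lay lower without overlap in 9 of the 21 genes and in 54.8% of all coding genes. As measured 2 were called as falls (9.52%, against 39.9% of all coding genes), and 5 rose and 1 fell level-relative, where the brightest members took the fixed value of the bright end. Single mice moved these counts. The falls were 1 without any single control mouse and 5 without MEC1 replicate 1, and without MEC1 replicate 3 there were 4 rises and 7 falls. The level-relative rises were 3 without control replicate 3, and the level-relative fall was lost without control replicate 2 or MEC1 replicate 3. Ngp, their brightest member, read 18.53, 18.19 and 18.46 against 18.42, 18.53 and 16.98, not called (adjusted p = 0.436), while Ly6g, the surface marker of neutrophils, fell by 2.53 (adjusted p = 0.00702). The part of granulocytes in the rises above was not tested.

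Among CC chemokines and receptors 3 rose and 5 fell of 15, and one of the rises, Ccl8, passed the filter only through MEC1 mice. Ccl3, which recruits monocytes and T cells, read 12.19, 13.27 and 12.53 in control mice and 9.71, 9.55 and 7.61 in MEC1 mice, and fell by 3.71 (adjusted p = 0.00626). Ccl2, the ligand of CCR2, read 8.86, 9.81 and 9.52 against 6.46, 6.97 and 6.24 and fell by 2.84 (adjusted p = 0.00245). The groups did not overlap in either, which for Ccl3 was a condition of its choice. The level-relative changes of -2.31 and -1.63 were also called.

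The largest falls were red cell genes. Aqp1, the water channel of the red cell membrane, read 13.97, 14.25 and 14.05 in control mice and 4.55, 4.82 and 5.59 in MEC1 mice, and fell by 9.10 (SE 0.282, adjusted p = 0.000106). The MEC1 values lay just above the array median. Rhag, which carries the Rh blood group complex, read 14.30, 14.96 and 15.28 against 5.97, 4.61 and 7.43 and fell by 8.84 (SE 0.684, adjusted p = 0.00105). Slc4a1, the anion exchanger band 3, fell by 8.53, from 13.58, 14.28 and 14.41 to 5.46, 5.42 and 5.80. Its MEC1 mice lay close together, while those of Rhag spread from 4.61 to 7.43. The part of array state in these falls was not tested. In bulk RNA, fewer red cell precursors and less RNA in each cannot be told apart.

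The carbonic anhydrases Car2 and Car1 had changes of -8.10 and -7.56. Alad, the second enzyme of heme synthesis, read 15.04, 15.81 and 15.52 against 7.90, 7.33 and 7.53 and fell by 7.87 (SE 0.253, adjusted p = 0.000107). The red cell membrane genes Ermap, Kel and Rhd had changes of -7.81, -6.67 and -6.57, and Cldn13, a claudin known from mouse erythroblasts, one of -7.72. Ces2g, a carboxylesterase, and Dhrs11, a dehydrogenase, completed the 12 largest falls at -6.16 and -5.50. The 12 were picked among called genes whose groups do not overlap, so that the lack of overlap was set by the choice. All were also called as level-relative falls, and each kept its call as measured in the 6 fits that left out 1 mouse.

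The wider erythroid lists moved with them. Of 19 tested red cell membrane and blood group genes 18 fell (median -4.77), and 16 fell level-relative (median -3.58). The list of hemoglobin and heme synthesis had 13 tested genes, no globin gene among them. Of these 13 genes 12 fell (median -2.95), 11 of them level-relative, or 7 without control replicate 3. Of 13 erythroid and megakaryocyte regulators 13 fell, with Cited4 tested only through control mice (median -2.16), 10 of them level-relative. With 1 mouse left out the falls of these regulators were 11 to 13 and the level-relative falls 7 to 10. Klf1, the factor that switches on adult globin and membrane genes, read 8.83, 9.06 and 8.91 in control mice and 5.17, 4.91 and 4.79 in MEC1 mice, and fell by 3.98 (SE 0.164, adjusted p = 0.000290). Zfpm1, the GATA1 partner FOG1, fell by 4.27 (adjusted p = 0.000485). Gata1 itself was dim and fell by 0.70 (adjusted p = 0.0138), a call lost without control replicate 2 (adjusted p = 0.0556). The mean level over the 19 membrane genes was 10.14 to 10.73 in control mice and 5.01 to 5.74 in MEC1 mice. These are genes of red cell precursors rather than of monocytes, and the number of such cells in each isolate was not measured.

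Tfrc, the transferrin receptor through which dividing cells and erythroblasts take up iron, read 10.74, 11.39 and 11.34 against 7.82, 6.72 and 7.06 and fell by 3.96 (adjusted p = 0.00125). Of 19 iron handling genes 12 fell (63.2%, against 39.9% of all coding genes). Level-relative 6 fell and 3 rose, with a median of -0.07, and these rises were lost without any single control mouse or MEC1 replicate 2. Slc40a1, the iron exporter ferroportin of macrophages, read 7.59, 7.48 and 7.84 against 6.22, 5.38 and 5.52 and fell by 1.93 (adjusted p = 0.00371), with a level-relative change of -1.09 (adjusted p = 0.0178) that was not called without control replicate 1 or 3 (adjusted p = 0.0515 and 0.0690).

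Genes of DNA replication and mitosis fell as well. Of 31 tested replication and nucleotide supply genes 30 fell (median -1.78), and 15 fell level-relative (median -0.67). Of 29 mitosis genes 27 fell (median -1.85), and 11 fell level-relative (median -0.65). Mcm2, a subunit of the replicative helicase, read 12.90, 13.43 and 13.37 in control mice and 10.44, 9.97 and 8.82 in MEC1 mice, and fell by 3.49 (SE 0.417, adjusted p = 0.00298). Cdc6, which loads that helicase onto origins, fell by 3.61 (adjusted p = 0.00153), from 10.63, 10.98 and 10.88 to 7.88, 7.18 and 6.60. Both were also called level-relative, at -2.13 and -2.37.

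Mki67 stayed bright in MEC1 mice, at 15.65, 15.25 and 13.32 against 17.01, 17.39 and 17.30. Its fall of -2.49 (adjusted p = 0.0183) and that of Cdk1, -2.03 (adjusted p = 0.0161), were not called without control replicate 2 or 3, with adjusted p of up to 0.0616 and 0.0559. The falls in mitosis genes came to 11 without control replicate 2 and 10 without control replicate 3, and those in replication genes to 19 without control replicate 2. The level-relative falls in mitosis genes came to 5, 1 and 1 without control replicates 1, 2 and 3, and to 3 and 7 without MEC1 replicates 2 and 3, and those in replication genes to 8 without control replicate 3. Erythroblasts and granulocyte precursors divide as well as monocyte progenitors, and the share of each in these falls was not tested.

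**Figure D4:**
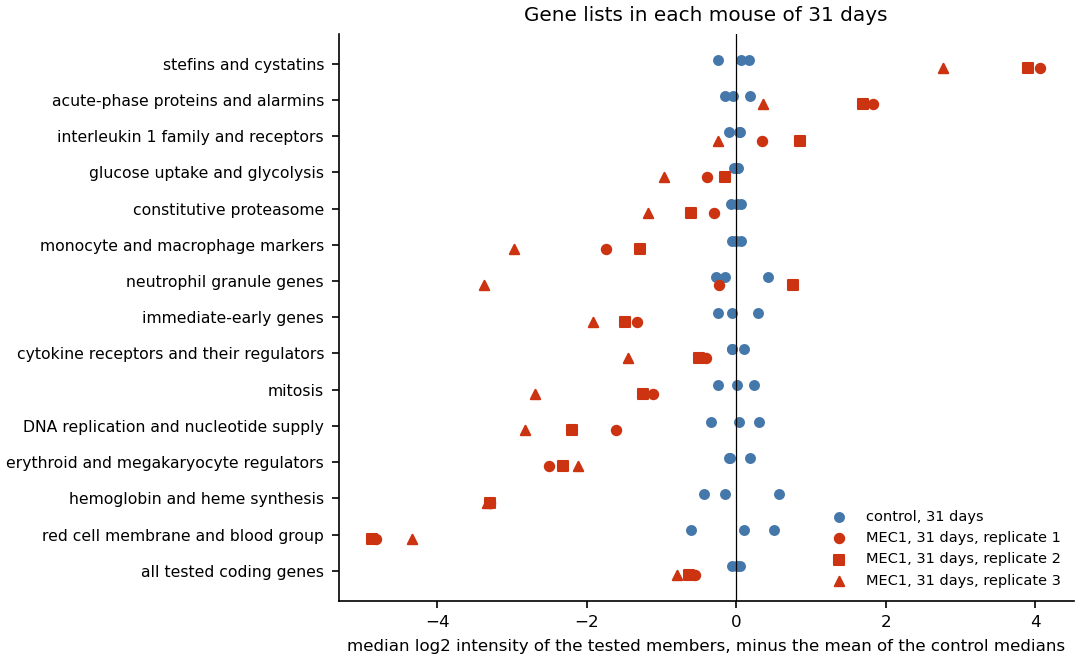
Median log2 intensity of the tested members of 14 gene lists in each of the 6 mice of 31 days, after subtraction of the mean of the 3 control medians, with all tested coding genes in the last row. Circles in blue are control mice and red symbols the 3 MEC1 mice. Replicate 3 (triangles) lies lowest in most lists, but highest of the MEC1 mice in red cell membrane genes and erythroid regulators.

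The markers of the labelled cell type were present in every array and lower in MEC1 mice, near the typical change of their brightness. Of 14 tested monocyte and macrophage markers 2 rose and 5 fell, and the median was -1.32 as measured and -0.03 level-relative. The share that fell, 35.7%, stood beside 39.9% of all coding genes. The falls were 2 without any single control mouse, and 8 and 9 without MEC1 replicates 2 and 3, and the rises 1 without any mouse but MEC1 replicate 3. Level-relative 2 markers rose, Mertk and Lgals3, and 1 fell. The mean over the list was 11.07 to 11.08 in control mice and 9.31 to 10.68 in MEC1 mice. Mertk, the receptor by which resident macrophages clear dead cells, lay below the array median in control mice, the exception among these markers.

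The 3 brightest markers were Ly6c2, a surface protein of classical monocytes, Lyz2, lysozyme, and F13a1, a clotting factor subunit. Their changes were -1.61 (adjusted p = 0.0781), -1.72 (adjusted p = 0.0537) and -1.64 (adjusted p = 0.0438), so that only the last of the 3 was called. Ly6c2 was called as a fall with all 12 arrays, with array weights and without MEC1 replicate 1 or 3. Lyz2 was called as a fall with quantile normalization, centring, all 12 arrays and the replicate block, and without MEC1 replicate 2 or 3. Mpeg1, which forms pores in engulfed bacteria, read 12.58, 12.40 and 12.52 against 11.05, 10.93 and 10.09 and fell by 1.81 (adjusted p = 0.00524). Csf1r, the growth factor receptor of the lineage, read 11.87, 11.61 and 11.68 against 10.64, 10.73 and 9.27 and fell by 1.51 (adjusted p = 0.0261). Adgre1, the F4/80 antigen, fell by 1.52 (adjusted p = 0.0398). The calls of Csf1r, Adgre1 and F13a1 were lost without any single control mouse, that of F13a1 also without MEC1 replicate 1, with adjusted p of up to 0.0736, 0.120 and 0.115. With quantile normalization Adgre1 (-0.93, adjusted p = 0.142) and F13a1 (-1.26, adjusted p = 0.0508) were not called.

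Cd68, a lysosomal protein of macrophages, read 11.48, 11.60 and 11.43 against 9.10, 9.92 and 8.02. It fell by 2.49 (adjusted p = 0.00870) and was the 1 marker called as a level-relative fall, at -1.20 (adjusted p = 0.0203). The second call was kept without MEC1 replicate 2 and lost without each of the other 5 mice, with adjusted p of up to 0.0713. Mertk, one of the 2 marker rises, read 3.59, 3.46 and 3.40 against 4.89, 5.18 and 5.48, a difference of 1.70. It passed the filter only through MEC1 mice, so that its call supports nothing. Ms4a7, a macrophage membrane protein, rose by 1.09 (adjusted p = 0.0298), a call lost without any single control mouse, MEC1 replicate 1 or MEC1 replicate 2 (adjusted p of up to 0.0914), with quantile normalization (0.89, adjusted p = 0.135) and with arrays centred on their median (0.66, adjusted p = 0.174). Its level-relative change of 0.905 was not called (adjusted p = 0.0952). Itgam, Ccr2, Cd14, Fcgr1 and Lgals3 had changes of -1.14, -0.96, -0.70, -0.31 and -0.13 that were not called. Level-relative Lgals3 rose by 0.67 (adjusted p = 0.0313). That call was lost without any single control mouse or MEC1 replicate 1 or 2 (adjusted p of up to 0.0957). With arrays centred on their median Itgam, Ccr2 and Cd14 were called as falls (adjusted p = 0.0321, 0.0324 and 0.0217).

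Of 21 myeloid transcription factors 9 fell (42.9%, against 39.9% of all coding genes) and 1 rose. Level-relative 3 rose and 5 fell, with a median of -0.09. The rise was lost without any single control mouse or MEC1 replicate 1. Klf4, needed for the patrolling monocyte, read 12.17, 12.82 and 13.04 in control mice and 9.64, 9.50 and 8.82 in MEC1 mice, and fell by 3.36 (SE 0.311, adjusted p = 0.00162). Irf8, which commits progenitors to monocytes and dendritic cells, was almost the same in the 3 control mice, at 11.48, 11.47 and 11.48, and stood at 9.39, 9.03 and 8.16 in MEC1 mice. It fell by 2.62 (SE 0.312, adjusted p = 0.00297). Cebpa, the granulocyte and monocyte progenitor factor, fell by 2.49 (adjusted p = 0.00927), and Nr4a1, the factor of non-classical monocytes that stimulation also induces, by 3.07 (adjusted p = 0.00609). Level-relative, Klf4, Irf8 and Cebpa changed by -1.96, -1.33 and -1.22 (adjusted p = 0.00507, 0.00217 and 0.0123), the last not called without control replicate 3 (adjusted p = 0.0533). The level-relative value of Nr4a1, -1.67, was not called (adjusted p = 0.0551). It was called in other settings, among them all 12 arrays (adjusted p = 0.0297) and array weights (adjusted p = 0.0293).

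Of 21 tested myeloid transcription factors 1 rose and 9 fell. The riser was Hif1a, the factor stabilised by low oxygen and by inflammatory signals, at 10.13, 10.30 and 10.41 against 11.67, 12.12 and 10.87. Its change of 1.27 (adjusted p = 0.0228) was not called without any single control mouse or without MEC1 replicate 1 (adjusted p of up to 0.0673), nor with arrays centred on their median (0.84, adjusted p = 0.107). Level-relative it rose by 2.53 (SE 0.190, adjusted p = 0.00123), a call kept in all 6 fits that left out 1 mouse. Stat3, which carries the interleukin 6 signal, read 10.17, 9.94 and 9.90 against 10.39, 10.45 and 10.13, not called (change 0.32, adjusted p = 0.151). The change was -0.11 with arrays centred on their median. It was called with quantile normalization (0.92, adjusted p = 0.0182) and with array weights (0.45, adjusted p = 0.0197). Level-relative Stat3 rose by 1.56 (adjusted p = 0.00391). Il6ra, the receptor chain that starts the interleukin 6 signal, went the other way, from 13.27, 13.07 and 12.99 to 10.38, 10.45 and 8.64. It fell by 3.29 (adjusted p = 0.00503), with a level-relative change of -1.91. In its list of 19 cytokine receptors and regulators 10 fell, or 6 without control replicate 3.

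C-type lectins, which bind microbial and self glycans, moved in both directions. Of 18 tested 4 rose and 9 fell, and 6 rose and 7 fell level-relative. The 4 rises came to 2 without any single control mouse. The level-relative rises came to 3 without any single control mouse or MEC1 replicate 1 or 2, and the level-relative falls to 4 without control replicate 1 or 3. Beside the rise of Clec4e, the beta-glucan receptor Clec7a read 13.80, 14.50 and 14.55 against 10.91, 11.34 and 9.61 and fell by 3.66 (adjusted p = 0.00337). Cd209a, the mouse relative of DC-SIGN, fell by 3.72 (adjusted p = 0.00188), from 9.07, 10.01 and 8.57 to 5.33, 5.44 and 5.71. Both were also called level-relative, at -2.30 and -2.60.

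Pilra, an inhibitory receptor for sialylated proteins, rose from 6.90, 6.66 and 6.66 to 9.55, 9.80 and 8.70 (change 2.61, adjusted p = 0.00270). Trem1, which amplifies inflammatory signalling, rose by 1.72 (adjusted p = 0.0329). That call was lost without control replicate 1 or 2 or MEC1 replicate 1 or 2 (adjusted p of up to 0.0997) and with arrays centred on their median (1.29, adjusted p = 0.0872). Of 20 inhibitory and paired receptors 4 rose and 4 fell, with 7 rises level-relative. Without control replicate 1 there were 2 rises, and without control replicate 2 there were 2 rises and 2 falls.

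Ligands that T cells read were mixed, although these mice have no T cells of their own. Of 14 costimulatory and checkpoint genes 4 rose and 6 fell, 3 without control replicate 2 or 3. Cd80, a costimulator, rose from 5.47, 5.64 and 6.47 to 7.60, 7.28 and 7.35 (change 1.55, adjusted p = 0.00895), and Cd274, the checkpoint ligand PD-L1, from 4.95, 5.23 and 5.05 to 6.36, 6.04 and 6.76 (change 1.31, adjusted p = 0.00678). Tnfrsf14, the receptor HVEM, fell by 3.46 (SE 0.228, adjusted p = 0.000766), from 10.78, 11.17 and 11.20 to 7.99, 7.35 and 7.43. The groups did not overlap in any of these 3 genes, which for Cd80 and Tnfrsf14 was a condition of their choice. In MHC class II presentation 6 of 16 genes fell (37.5%, no more than the 39.9% of all coding genes), 3 without control replicate 2 or MEC1 replicate 1, and 1 rose. Level-relative 2 rose and 1 fell, with a median of -0.03. With 1 mouse left out the level-relative rises were 1 to 3, and a level-relative fall was called only without MEC1 replicate 3. The largest fall was that of the peptide loader H2-DMa at -1.64 (adjusted p = 0.00140).

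Type I interferon response genes had a level-relative median of 0.05. Of 31 tested 11 fell (35.5%, against 39.9% of all coding genes), 7 without any single control mouse or MEC1 replicate 2, and level-relative 5 fell, 3 without any of the same 4 mice. The largest fall was that of Cmpk2, a mitochondrial nucleotide kinase of that response, at -2.59 (adjusted p = 0.00298).

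Sugar uptake was among the metabolic rises. Slc2a1, the glucose transporter GLUT1, read 8.49, 8.95 and 8.60 in control mice and 10.34, 10.14 and 9.94 in MEC1 mice, and rose by 1.46 (SE 0.190, adjusted p = 0.00362) or by 2.50 level-relative. Of 22 genes of glucose uptake and glycolysis 3 rose and 6 fell, while level-relative 11 rose and 3 fell. The rises as measured came to 1 without any single control mouse or MEC1 replicate 2. The level-relative rises came to 7 without control replicate 2 or 3, and the level-relative falls to 1 without control replicate 1 or 3 or MEC1 replicate 2. Gapdh, the brightest of them, read 15.07, 15.02 and 15.09 against 15.01, 14.96 and 14.78, not called (adjusted p = 0.426). With arrays centred on their median it was called as a fall (-0.57, adjusted p = 0.0400). Its level-relative rise of 1.22 (adjusted p = 0.0359) was lost without any single control mouse or MEC1 replicate 2 (adjusted p of up to 0.115). Slc16a1, a lactate and ketone carrier, fell by 2.77 (adjusted p = 0.000999), from 10.16, 10.43 and 9.95 to 7.35, 7.71 and 7.18.

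Among lipid handling genes Abca9, an ABC transporter of macrophages, read 10.18, 10.54 and 9.98 in control mice and 4.84, 5.32 and 5.32 in MEC1 mice, and fell by 5.07 (SE 0.220, adjusted p = 0.000302). Of 18 sterol efflux and lipid transport genes 10 fell (55.6%, against 39.9% of all coding genes) and 2 rose. Level-relative 3 rose and 4 fell, with a median of -0.03, and the rises came to 1 without control replicate 2 or 3 and the falls to 2 without either of them or MEC1 replicate 2. Apoe, the lipid carrier, fell by 1.82 (adjusted p = 0.00328). Nr1h3, the oxysterol receptor LXR alpha, rose by 1.22 (adjusted p = 0.00869), though not with arrays centred on their median (0.79, adjusted p = 0.0541).

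Several groups of abundant genes fell less than others as bright as they were. Of 30 subunits of the constitutive proteasome 9 fell as measured and 15 rose level-relative, with medians of -0.74 and 0.50. Psma5 and Psma6, of its outer ring, had changes of 0.50 (adjusted p = 0.138) and 0.37 (adjusted p = 0.238) that were not called, and rose level-relative by 1.86 and 1.73. With arrays centred on their median the change of Psma6 turned to -0.06. With quantile normalization both were called, Psma5 at 0.92 and Psma6 at 0.81 (adjusted p = 0.0194 for each). Of 20 actin cytoskeleton genes 7 fell and 12 rose level-relative. The level-relative rises came to 7, 6 and 5 in the proteasome without control replicates 1, 2 and 3. Those in actin genes came to 3 without any single control mouse and to 4 without MEC1 replicate 2. The falls as measured moved too, in the proteasome to 5, 4 and 4 without control replicates 1, 2 and 3 and to 17 without MEC1 replicate 1, and in actin genes to 3 without any single control mouse.

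**Figure D5:**
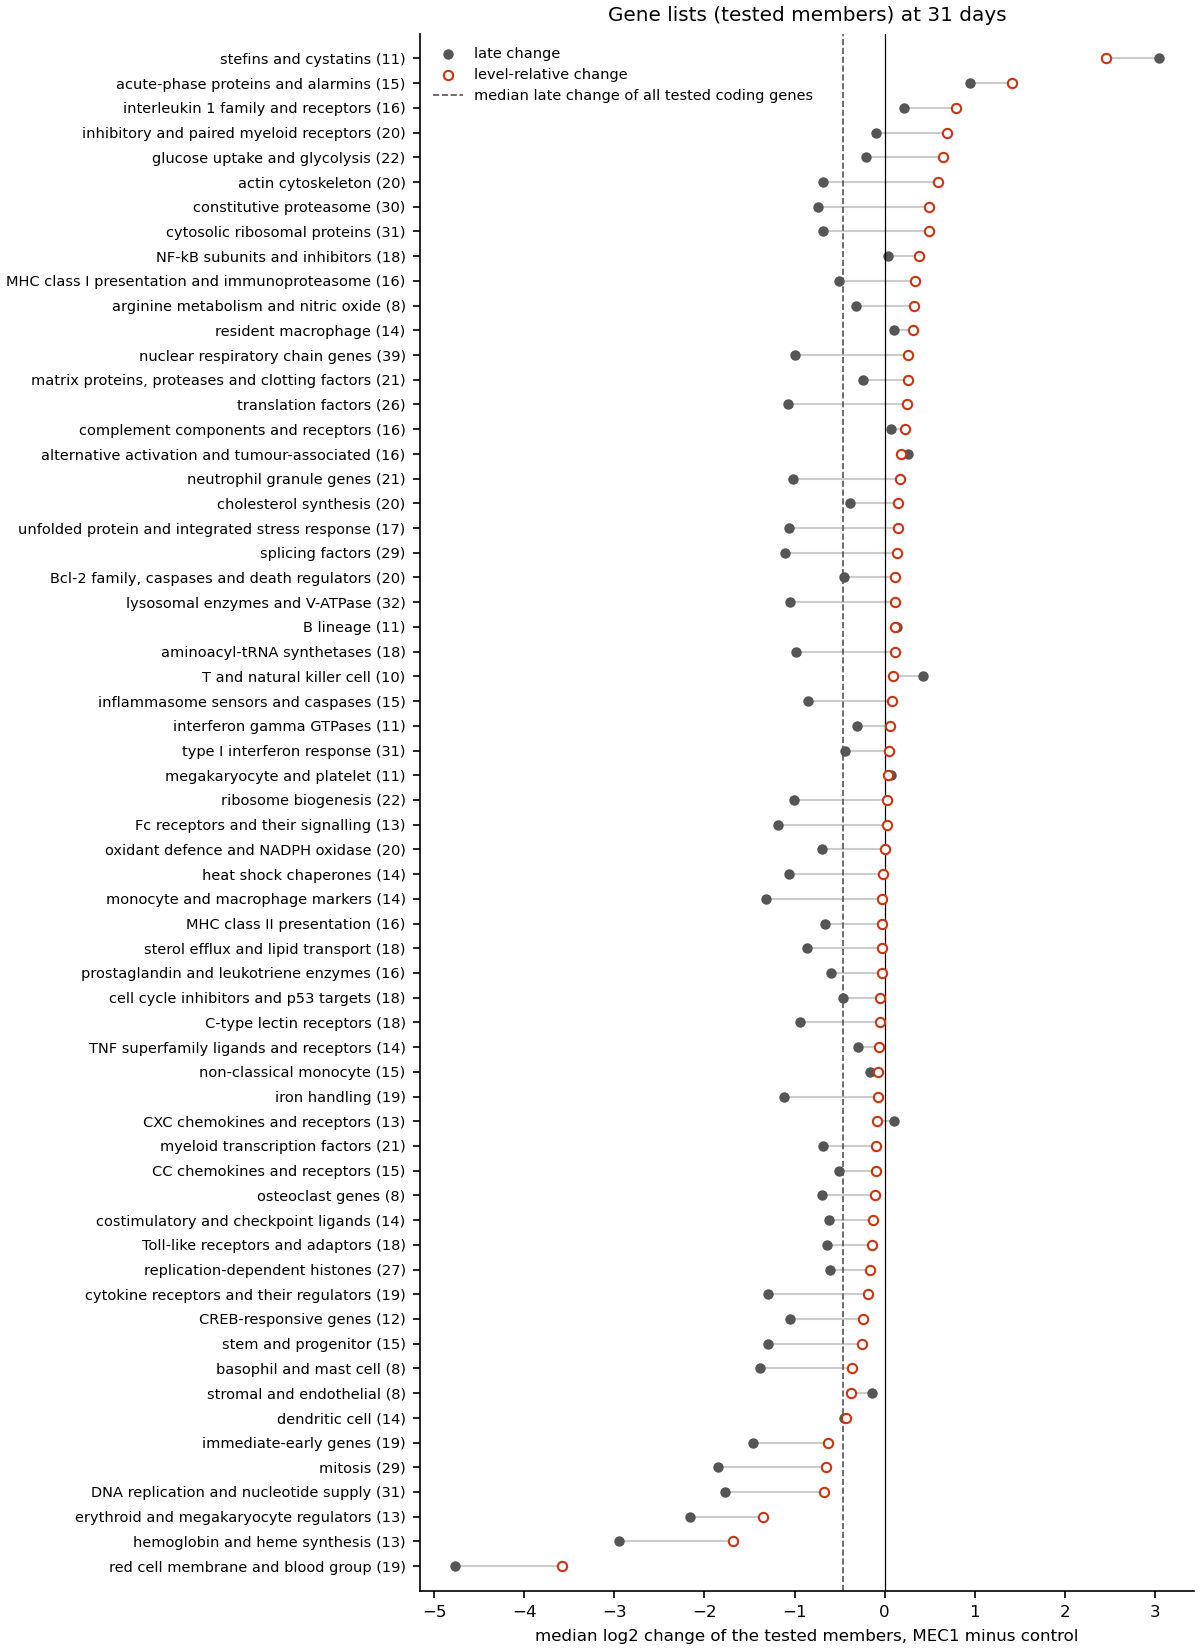
Median log2 change (MEC1 minus control, 31 days) of the tested members of 62 gene lists, with the number tested in parentheses; filled circles are the late change and open circles the level-relative change. The dashed line is the median of all coding genes (-0.46), stefins and cystatins lie highest by both (3.04 and 2.46) and red cell membrane genes lowest (-4.77 and -3.58).

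Among stress genes Hspa1a, the inducible chaperone HSP70, read 11.68, 10.16 and 10.69 against 5.92, 6.54 and 4.88 and fell by 5.06 (SE 0.528, adjusted p = 0.00231). Hsph1, its nucleotide exchange factor, fell by 4.90 (adjusted p = 0.00154), from 13.76, 14.36 and 13.28 to 9.07, 9.57 and 8.05. Both were also called level-relative, at -3.82 and -3.54, while the level-relative median of the 14 tested heat shock chaperones was -0.02. Of these chaperones 10 fell, 3 without any single control mouse and 6 without MEC1 replicate 2. Genes of the unfolded protein and integrated stress response and of oxidant defence fell at about the background share of 39.9%, with 7 of 17 (41.2%) and 8 of 20 (40%). Without control replicate 3 both counts were 3. Of 19 immediate-early genes, which handling of cells induces, 12 fell (63.2%). Level-relative 7 fell, 3 without control replicate 3 or MEC1 replicate 3 and 4 without MEC1 replicate 1. Fos, a subunit of the AP-1 factor, read 15.62, 15.70 and 15.72 against 13.07, 13.18 and 11.40 (change -3.13, adjusted p = 0.00520). The part of cell handling in these falls was not tested. Txnip, which binds thioredoxin and restrains glucose uptake, fell by 3.15 (adjusted p = 0.00470), and Btg2, an antiproliferative target of p53, by 2.61 (adjusted p = 0.00352).

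Among regulators of cell death, Bcl2a1a, an NF-kB target that keeps myeloid cells alive, rose from 6.89, 6.34 and 6.45 to 9.90, 8.60 and 9.38 (change 2.73, adjusted p = 0.00337). It has near-identical mouse copies that probes may not separate. Bid, which links caspase 8 to mitochondria, fell by 1.82 (adjusted p = 0.00255). Of 20 genes in that list 2 rose and 9 fell (45%, against 39.9% of all coding genes), the falls being 5 without control replicate 1 or 2 and 4 without control replicate 3. Level-relative 4 rose, 2 without any single control mouse, and 1 fell.

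Of 8 genes of arginine metabolism and nitric oxide, known from tumour-associated macrophages, 3 rose and 3 fell, 1 without any single control mouse or MEC1 replicate 2. The rises Arg1 and Nos2 passed the filter only through MEC1 mice. Arg2, the mitochondrial arginase, rose from 5.06, 5.31 and 5.49 to 6.63, 6.97 and 6.58 (change 1.44, adjusted p = 0.00359), and Odc1, which makes polyamines from the ornithine that arginase releases, fell by 2.45 (adjusted p = 0.00426). Tgfb1, transforming growth factor beta 1, fell by 2.14 (adjusted p = 0.0103), while its receptors Tgfbr1 and Tgfbr2 had changes of -0.23 and -0.22 that were not called (adjusted p = 0.345 and 0.348). Tgfbi, a matrix protein named for its induction by that factor, read 13.38, 13.39 and 13.31 against 14.00, 14.59 and 13.45, a change of 0.65 that was not called (adjusted p = 0.108), and rose level-relative by 2.01 (adjusted p = 0.00313). Its change as measured was called with quantile normalization (1.05, adjusted p = 0.0153) and without MEC1 replicate 3 (0.935, adjusted p = 0.0212).

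Genes of B cells moved in both directions. Of 11 tested B lineage genes 4 rose and 2 fell, and their mean level was 5.24 to 5.38 in control mice and 5.19 to 5.35 in MEC1 mice. Pax5, the factor of B cell identity, rose from 4.70, 4.67 and 4.53 to 6.72, 6.65 and 7.21 (change 2.23, SE 0.192, adjusted p = 0.00139), and Ebf1, which acts before it, read 3.76, 3.64 and 3.77 against 4.94, 5.17 and 5.77, a difference of 1.57. Ebf1 passed the filter only through MEC1 mice, so that its call supports nothing, and 3 other members passed only through control mice. Ighm, the heavy chain constant gene, fell from 12.92, 12.87 and 13.04 to 8.86, 8.67 and 7.69 (change -4.54, adjusted p = 0.000813). Cd79a and Ms4a1, surface markers of B cells, had means of 3.71 and 3.53 in control mice, below the array median in all 3. Their means in MEC1 mice were 4.49 and 4.38, each above the array median in 2 of the 3. Coding genes at a control level of 4 or below had a median change of 0.53. Cd79b, another such marker, lay above the median in every array, with means of 5.67 in control and 5.49 in MEC1 mice. MEC1 is a human B cell line and the probes are of mouse sequence, and how far human transcripts bind them was not tested.

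Other cell types were seen through their markers. Of 8 basophil and mast cell genes 6 fell, led by the protease Prss34 at -3.04 (adjusted p = 0.0138). Without control replicate 2 the call of Prss34 was lost (adjusted p = 0.0511) and 2 genes fell. The mean over the list was 8.73 to 9.36 in control mice and 7.12 to 8.18 in MEC1 mice. Of 15 stem and progenitor genes 8 fell (53.3%), and 2 fell level-relative, 1 without any mouse but MEC1 replicate 1. Of 14 dendritic cell genes 6 fell (42.9%) and 1, Ccr7, rose, with 5 falls and 2 rises level-relative. Over all coding genes 39.9% fell. T and natural killer cell genes lay near the array median, at a mean of 4.14 to 4.33 in control mice and 4.50 to 4.80 in MEC1 mice. Of 10 tested 4 rose (40%, against 8.53% of all coding genes), Eomes by 1.20, Tbx21 by 1.17, Gzma by 0.89 and Cd3g by 0.48, and 1, Il7r, fell. Dim genes rose more often, 48.7% of coding genes at a control level of 4 or below and 17.4% from 4 to 5. The rises in the list were 3 in each fit that left out 1 mouse. A fall was called in these fits only without control replicate 3. Eomes passed the filter only through MEC1 mice, and 1 of the 10, Tbx21, rose level-relative. The defining T and natural killer markers Cd3e, Cd8a and Ncr1 lay above the median in no MEC1 array, whereas Cd3d and Cd3g did in all 3.

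Whether the late change differs from the change at 21 days was tested in all 12 arrays as a difference of differences. Il1r2 was the 1 coding gene called (0.00843%), while 2014 had an unadjusted p under 0.05. It read 7.76, 8.13 and 7.31 in control mice of 21 days and 7.22, 7.34 and 7.21 in MEC1 mice of that day, a change of -0.48 (adjusted p = 0.538). The late change was larger by 8.45 (SE 0.649, adjusted p = 0.00207, limma), and the call held when any single array of the 12 was left out. The control mice of 31 days read lower than those of 21 days in this gene, without overlap. For Cxcl13 and Saa3 the early changes were 0.93 and 2.37, and the differences of 6.02 and 3.68 were not called (adjusted p = 0.104 and 0.170). Slc4a1 changed by -4.05 early and -8.53 late, and that difference was not called either (adjusted p = 0.307). For Hspa1a, at -0.67 early and -5.06 late, the adjusted p of the difference was 0.307.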

How the data were processed

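RNA from bone marrow monocytes and macrophages of 12 mice, 3 in each of 4 groups, was read on mouse whole-transcriptome arrays. The authors deposited log2 intensities per transcript cluster, made by RMA in Affymetrix Expression Console per the submitters' processing notes; versions are not given in the sources used here. RMA includes background subtraction and normalization between arrays, so absolute shifts shared by all genes may be reduced. The deposited arrays of 31 days still differed in median (3.81 in control and 4.24 in MEC1 mice) and interquartile range (2.24 and 1.75). A common scale of the arrays therefore cannot be taken as given.

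Of 72688 features, 6732 control features were left out. Of 65956 clusters 31258 had 1 gene symbol, 1492 several and 33206 none; 31256 symbols matched the RefSeq table of GRCm38.p6, which also gave the class protein-coding, and 1789 were updated. A cluster was tested if above its array's median in at least 3 of 6 arrays, 33778 in all. limma 3.58.1 in R 4.3.3 (lmFit and eBayes, Benjamini-Hochberg adjustment over all tested clusters, adjusted p under 0.05) compared the 2 groups of 31 days; the level-relative change subtracts from each array a running median over coding genes ordered by control mean. Late against early used all 12 arrays. The fits were tested on simulated data.

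Genes named are the 12 largest rises and falls, the 8 largest level-relative changes each way, the largest called rise, largest called fall and brightest member of each of 62 lists, and all lineage markers, not each of which is given with values; 17 more were chosen after their values were seen (Il1b, Il1f9, Klf1, Gata1, Irf8, Cebpa, Hsph1, Trem1, Cd274, Ebf1, Mcm2, Psma5, Psma6, Stat3, Ccl2, Tgfbi and Cdk1), as were the receptors of Tgfb1, the called T and natural killer genes and list members that passed the filter through 1 group only. The largest changes were picked only among called genes whose groups did not overlap. Outside the lists, genes with only a predicted or clone name were also left out. Members and lists were chosen with earlier results of these data known. Same-numbered mice were different animals, and their deviations correlated by -0.00644, 0.161 and 0.0158, so that numbers were not treated as pairs. Alternatives covered the filter, scaling, 12 arrays, eBayes settings, array weights, replicate block, hybridisation-control covariate, gene summary, level window and each mouse left out. With 3 arrays a group, their number limits the precision.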

Additional observations from a re-analysis of the deposited data

Results flagged for a closer look

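Il1r2 stood out because its change at 31 days differed from that at 21 days by the test of the difference itself. In log2 units the late change exceeded the early one by 8.45, with an SE of 0.649 and an adjusted p of 0.00207 in limma over 12 arrays. The difference ranged from 7.99 to 8.99 when any 1 array was left out, and was 8.47 with quantile normalization.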

How the results depend on the processing

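Counts moved with filter, scaling and single mice. Many named genes were picked as the largest called changes, so a comparison of their stability with that of the counts shows nothing. With the hybridisation-control covariate, 6 of 95 late changes of genes named here kept both sign and call status. A further 66 lost their call and 23 changed sign. Among coding genes, the 1012 rises became 3439 with no filter, 251 with a filter at the 70th percentile, 617 when all 6 arrays had to lie above the median, 546 with quantile normalization, 210 with arrays centred on their median, 1624 with array weights and 1 with the hybridisation-control covariate. The 4737 falls became 2551 with quantile normalization, 7473 with centred arrays and 0 with the covariate, where limma gave 340 at an unadjusted p under 0.05. Leaving out 1 mouse gave 327 to 915 rises and 2777 to 4626 falls. Over all clusters the 6172 rises became 15104, 2687, 4104, 3946, 2292 and 1 under no filter, the 70th percentile, all 6 arrays, quantile normalization, centring and the covariate, and 2828 to 5953 with 1 mouse left out; the 7324 falls became 4762 with quantile normalization, 12886 with centring and 0 with the covariate, and 4042 to 7125 with 1 mouse left out. Level-relative, 1235 rises and 1066 falls became 1 and 0 with the covariate, and 365 to 1080 and 413 to 900 with 1 mouse left out; quantile normalization and centring kept both within 1.5 times. In all 6 fits that left out 1 mouse, 280 of the 1012 rises and 2544 of the 4737 falls were called. Of the level-relative calls, 331 of the 1235 rises and 367 of the 1066 falls were kept in all 6. The 1 gene called for late minus early became 13 with quantile normalization and 1 to 4 with 1 array left out.

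The replicate number as a block, although the numbers pair no mice, gave 614 rises and 4198 falls, and 769 level-relative rises and 737 level-relative falls. Among named genes it ended the calls of Adgre1 and Trem1 (adjusted p = 0.0686 and 0.0727) and the level-relative call of Lgals3 (adjusted p = 0.0664), and made those of Lyz2 (adjusted p = 0.0480) and of Nr4a1 level-relative (adjusted p = 0.0204).

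Directions that turned were mostly those under the covariate, which is nearly confounded with the groups: Adgre1 0.59 (level-relative 0.26), Ccl3 1.07, Ccr2 1.22, Cd14 0.20, Cd68 0.48, Cdk1 1.33, Cebpa 0.79, Csf1r 1.00 (level-relative 0.019), F13a1 1.85, Fcgr1 4.51, Fos 0.54, Gapdh 0.28 (level-relative -1.01), Il6ra 0.19, Itgam 1.18, Lgals3 1.23, Ly6c2 2.94, Lyz2 1.80, Mki67 1.97, Mpeg1 0.13, Ngp 2.14, Prss34 1.91, Tgfb1 0.65 and Txnip 0.095. Array weights turned Fcgr1 to 0.30, Lgals3 to 0.087 and Ngp to 0.015. With 1 mouse left out they ranged from -0.75 to 0.43, from -0.28 to 0.09 and from -0.69 to 0.082, each positive only without MEC1 replicate 3. Quantile normalization turned Gapdh to 0.31 and Lgals3 to 0.47, and centring turned Psma6 to -0.06 and Stat3 to -0.11. The cause was not tested. Signals near the array median or near 19.93 limit what a change can show.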
